A study of Owenia fusiformis with 9 samples.

Results

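The outer body transcripts of adult *Owenia fusiformis*, a tube-dwelling annelid worm, were those high in every library named for head, tail or body wall and low in every library of an internal organ. The former are called outer libraries here. They were chosen by the deposited values themselves. A transcript was taken when its lowest value among the libraries of head, tail, body wall and head plus chaetae was at least 100 normalised read counts, and when that value plus 10 was at least 5 times its highest value among the gut, ovary, testis, blood vessel and retractor muscle libraries plus 10. Of 31911 transcripts, 6452 reached 100 in all 4 outer libraries, and 115 of these also passed the ratio, 0.36% of all transcripts and 1.78% of the 6452. A cap of 200 was therefore not reached, and all 115 were kept. The description of these transcripts as absent from internal organs went beyond the values, since 1 of the 115 was at 0 in all 5 internal libraries and 60 were above 0 in every one of them. They are called outer body transcripts, or members, below.

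The study sequenced RNA from untreated adult worms that had been kept in artificial sea water with mud, fed algae and dissected with forceps, with 1 library for each of 9 tissues. Head and tail came from a pool of 5 females. Gut and ovary were dissected from 1 female, and blood vessel and testis from 1 male. By the sex in their labels, the body wall was placed with that female and the head plus chaetae and retractor muscle with that male. Tissue and worm therefore cannot be told apart, a tissue has no replicate, and no test between tissues was made. All comparisons below are descriptions of these 9 libraries, and differences between worms or dissections are not part of any interval given. The labelled tissues could not be checked against marker genes, as none of the identifiers was found in the reference table that pairs genes with names.

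An annelid body wall is built of a cuticle, the epidermis that secretes it, and layers of circular and longitudinal muscle. The epidermis also holds gland cells, ciliated cells and sensory cells, and in *Owenia* the main nerve cord lies within it. *Owenia* cements sand grains into a tube with gland secretions, feeds with a crown of tentacles on the head, and carries chaetae, the chitinous bristles that annelids form in epidermal pockets. Head, tail and body wall samples share these layers, whereas gut, gonad and blood vessel lie inside them. Head and tail are labelled as body regions, so those samples may also hold internal tissue. The paper names a head sample and a separate one of the head with the anterior-most segments. The head and head plus chaetae libraries may thus differ in the segments they hold. A retractor muscle pulls a part of the body back, so that the internal libraries include a muscle sample. In bulk tissue, fewer cells of a type and less RNA per cell cannot be told apart, and a low value in an internal library may hold either.

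After the authors' scaling 1 read was worth 5.53 normalised read counts in testis and 2.75 in retractor muscle, against 0.595 to 0.948 in the other 7 libraries. Approximate depth ran from 14608988 reads in blood vessel to 22177997 in testis. A low value in the testis or retractor muscle thus rests on fewer reads than the same value elsewhere, which bears on every internal level given below. No transcript lengths were used, so the order of transcripts within a library is an order of read counts and may reflect length too.

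The lowest outer value of the 115 transcripts ran from 105 to 11309 normalised read counts with a median of 587, and their highest internal value from 0 to 914 with a median of 58.1. The ratio that ordered them ran from 5.07 to 94.1 with a median of 7.75. On values scaled to a common library sum the ratio of the same transcripts ran from 5.37 to 206 with a median of 9.59, and the highest was that of OFUSG25703.1 (206), ahead of OFUSG11849.1 (98.5), whose order on the authors' values was the reverse. Over the 6452 transcripts with at least 100 in every outer library the median ratio was 0.357, so that a typical transcript of this kind was higher in some internal organ than in the lowest outer one. Most ratios of the members on the authors' values were under 10. The ratio was at least 6 for 89 members, at least 8 for 54, at least 10 for 33, at least 20 for 6 and at least 50 for 2. These values were used in the choice and are a description only.

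**Figure D1:**
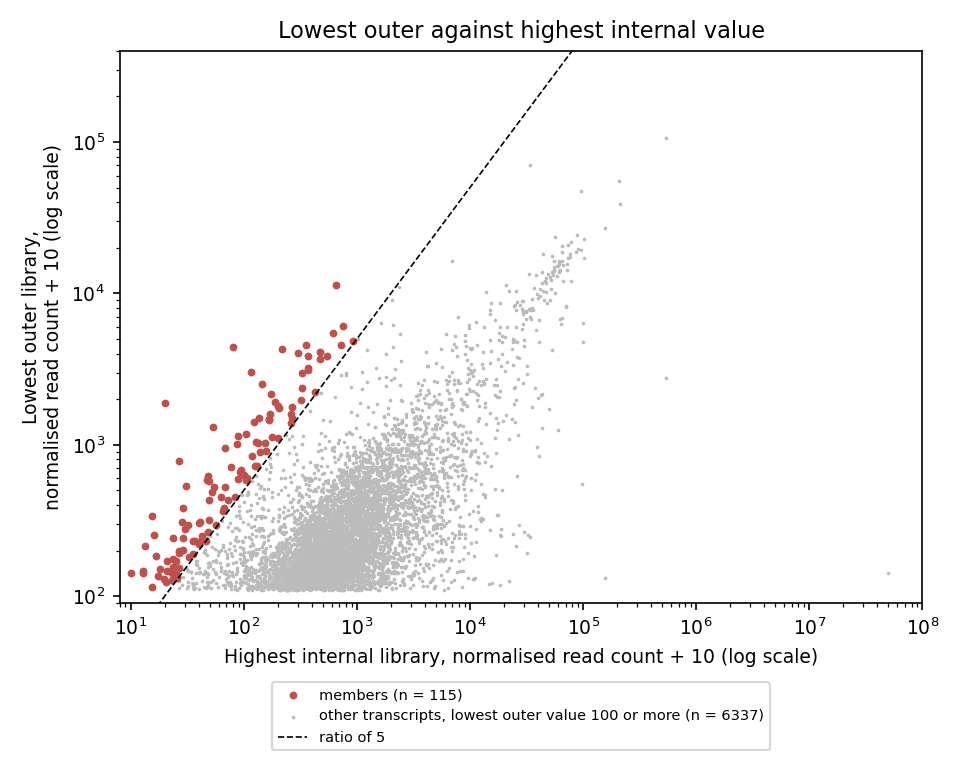
Each point is a transcript with at least 100 normalised read counts in all 4 outer libraries, with its lowest outer value on the vertical axis and its highest internal value on the horizontal axis (normalised read count plus 10, log scales). The 115 outer body transcripts (red) lie on the upper left of the dashed line at a ratio of 5, and most of the others (grey) lie far to its right.

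No gap separated the transcripts on either side of the threshold. Just inside it, OFUSG07383.3 had a ratio of 5.07, with a lowest outer value of 223 and a highest internal value of 35.9. Just outside, OFUSG18637.1 had a ratio of 4.996, with a lowest outer value of 123 and a highest internal value of 16.6. At the threshold of 100, OFUSG22389.1 was just inside at 105 in head, and OFUSG16242.1 was just outside at 97.7 in head with a ratio of 6.23. A further 12 transcripts passed the ratio but had a lowest outer value under 100.

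The transcript with the highest ratio on the authors' values, OFUSG11849.1, had 15308 normalised read counts in the head, 1867 in head plus chaetae, 100985 in tail and 2232 in body wall. It had 9.95 in gut, 4.80 in ovary, 5.53 in testis, 8.54 in blood vessel and 5.48 in retractor muscle. Its ratio was 94.1, and it was the transcript of rank 9 in the tail library. Every internal value was low and rested on few reads, about 15 in gut, 7 in ovary, 9 in blood vessel, 2 in retractor muscle and 1 in testis. The exact Poisson 95% interval, which covers counting error only, was 5.57 to 16.4 in gut, and that of the testis reached from 0.140 to 30.8. Among the outer libraries the tail stood far above the rest and the head was next, both from the pool of females.

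OFUSG25703.1, second by ratio at 54.9, had 6392 in head, 15656 in tail, 4439 in body wall and 5415 in head plus chaetae. Its internal values were 9.29 in gut, 3.44 in ovary, 38.7 in testis, 0.951 in blood vessel and 71.0 in retractor muscle. The retractor muscle value rested on about 26 reads, with an interval of 46.7 to 105. Here the outer libraries were closer to each other than for OFUSG11849.1, with the tail again the highest. OFUSG08614.1, at a ratio of 29.6, had 1622 in head, 1841 in tail, 3028 in body wall and 776 in head plus chaetae. It was at 0 in testis and blood vessel, and had 11.9 in gut, 15.7 in ovary and 16.6 in retractor muscle. A count of 0 in testis is a weak limit, since the 3 reads that a count of 0 allows are worth 16.6 normalised read counts there, against 2.84 in blood vessel.

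OFUSG16059.1 (ratio 26.1) and OFUSG25640.1 (ratio 24.9) were nearly level over the outer body. OFUSG16059.1 had 3135 in head, 2995 in tail, 4129 in body wall and 3740 in head plus chaetae, with the highest internal value, 105, in the ovary. OFUSG25640.1 had 1695 in head, 1885 in tail, 1310 in body wall and 1440 in head plus chaetae, against 43.1 in gut, 22.6 in ovary, 38.5 in retractor muscle and 0 in testis and blood vessel. OFUSG02845.1 (ratio 22.0) was lower throughout, with 696 in head, 465 in tail, 331 in body wall and 520 in head plus chaetae. Its internal values amounted to at most about 2 reads in any library, the 5.53 in testis being 1 read.

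The other 4 of the 10 highest ratios combined high outer values with an internal organ that was low but clearly detected, or were lower transcripts with several zeros. OFUSG16718.1 (ratio 19.7) was a head transcript above all, with 40438 in head, 7993 in tail, 4569 in body wall and 4273 in head plus chaetae, against 208 in gut and 33.2 to 77.4 in the other internal libraries. OFUSG15771.1 (ratio 17.3) had its lowest outer value in the head, 2492, and 6121, 5724 and 5198 in head plus chaetae, tail and body wall, against 135 in retractor muscle as the highest internal value. OFUSG03852.2 (ratio 17.0) had 1984 in head, 1465 in tail, 804 in body wall and 520 in head plus chaetae, against 21.2 in ovary, 4.63 in gut and 0 in the other 3 internal libraries. The remaining transcript of these 4, OFUSG06053.1 (ratio 17.2), also had the highest outer read count of the 115.

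OFUSG06053.1 had 38812 in head, 356653 in tail, 69788 in body wall and 11309 in head plus chaetae. It had the highest value of all transcripts in the tail, where it held 3.03% of the summed values, and was at rank 10 in body wall, 22 in head and 155 in head plus chaetae. Its internal values were 157 in gut, 102 in ovary, 205 in testis, 18.0 in blood vessel and 646 in retractor muscle. Even the head plus chaetae, the lowest of the outer libraries, was 17.2 times the retractor muscle with 10 added to both.

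The other 4 transcripts with the highest lowest outer values differed in which outer library was high. OFUSG14376.1 had 13620 in head, 10687 in tail, 6061 in body wall and 23754 in head plus chaetae, against 748 in retractor muscle and 421 in ovary. OFUSG04710.1 had 6573 in head, 27162 in tail, 7166 in body wall and 5446 in head plus chaetae, against 601 in ovary and 490 in retractor muscle. The first was highest in the head plus chaetae and the second in the tail, and both had ovary and retractor muscle as their highest internal libraries. OFUSG17389.1 had 12903 in head, 34484 in tail, 5737 in body wall and 4841 in head plus chaetae, against 914 in retractor muscle, the highest internal value of any of the 115. OFUSG20401.1 had 4718 in head, 10509 in tail, 4571 in body wall and 4799 in head plus chaetae, against 348 in ovary. The highest internal values of these 5 transcripts, 348 to 914, thus lay within or above the range of the median outer values of the background described next, 328 to 363.

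As a group, the 115 transcripts had a median of 1380 normalised read counts in the head, 1068 in head plus chaetae, 1179 in tail and 1070 in body wall. Their medians in the internal libraries were 11.9 in gut, 33.4 in ovary, 11.1 in testis, 4.73 in blood vessel and 30.3 in retractor muscle. The 6452 transcripts with at least 100 in every outer library, which include the 115 and are called the background here, had medians of 328 to 363 in the outer libraries and 236 to 323 in the internal ones. The higher outer values of the members are a description, as the ratio used the lowest outer value and favours high ones. Together they held 3.96% of the summed values in the head, 2.56% in head plus chaetae, 8.48% in tail and 3.64% in body wall. In the internal libraries they held 0.0901% in ovary, 0.0287% in gut, 0.0194% in retractor muscle, 0.0103% in blood vessel and 0.00200% in testis. These shares depend on the library sums. The 10 most abundant transcripts of a library held 77.4% of the sum in testis and 66.5% in retractor muscle, against 7.34% to 16.1% elsewhere. On the authors' values the members summed to 10955 in retractor muscle and 10168 in ovary, the reverse of the order by share. Without the pair that is highest in the tail, OFUSG06053.1 and OFUSG11849.1, the share in the tail was 4.59%. Of the 100 transcripts with the highest values in a library, 11 were among the 115 in tail, 5 in body wall, 3 in head, 1 in head plus chaetae and 0 in each internal library.

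**Figure D2:**
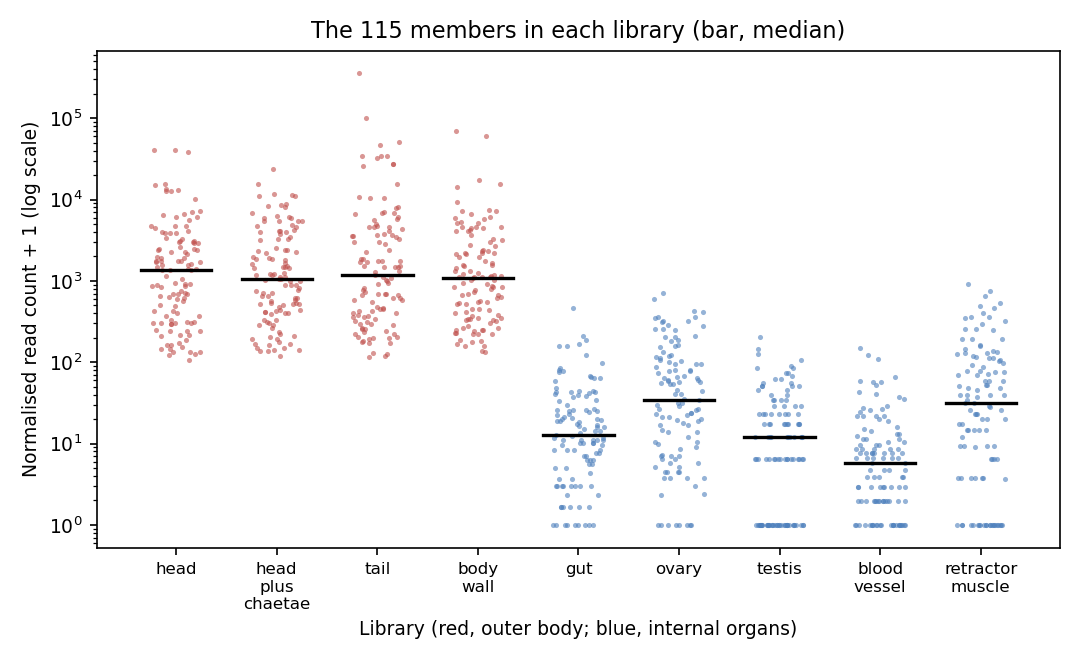
Normalised read counts of the 115 outer body transcripts in each of the 9 libraries (1 point per transcript, log scale after adding 1), with outer libraries left and internal libraries right and a bar at the median. The medians lie between 1068 and 1380 in the outer libraries and between 4.73 and 33.4 in the internal libraries.

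The rule fixed the lowest outer value but not how the 4 outer libraries differ from each other. In this respect the 115 were more uneven than the background. The ratio of the highest to the lowest outer library, with 10 added to both, had a median of 3.28 and ran from 1.15 to 59.3, against a median of 2.001 in the background. All 4 outer libraries were within 2-fold of each other for 22 of the 115 (19.1%), against 50% of the background. A difference of 10-fold or more was seen for 18 (15.7%), against 4.23% of the background. Since the 115 had higher values than the background, both were also compared above the members' median of 587, a comparison chosen after seeing the data. There 12 of 58 outer body transcripts (20.7%) were within 2-fold, against 50.1% of 1072 transcripts, and the median fold was 3.57 against 1.99.

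The most even transcripts had nearly the same value in all outer libraries. OFUSG04600.1 had 4084 in head, 4650 in tail, 4113 in body wall and 4056 in head plus chaetae, a spread of 1.15-fold, against 289 in ovary, 58.0 in retractor muscle and 8.51 to 16.6 in the other internal libraries. OFUSG09664.1 had 1918 in head, 2274 in tail, 1946 in body wall and 2199 in head plus chaetae, a spread of 1.18-fold, against 181 in ovary and 129 in retractor muscle. Both were thus level over pooled and single worms and over females and the male, and low in the internal organs of both.

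**Figure D3:**
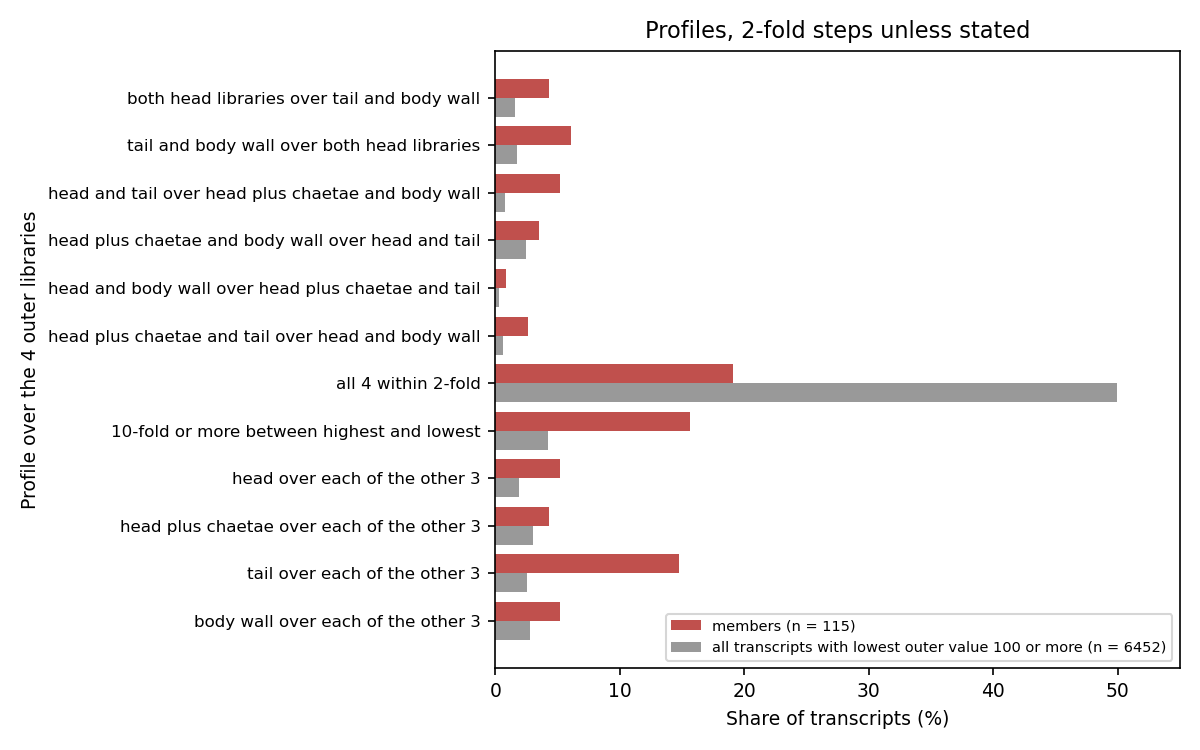
Share of transcripts in each profile over the 4 outer libraries, for the 115 outer body transcripts and for the 6452 transcripts with at least 100 in every outer library. The tail at least 2-fold over each other outer library was the most frequent single-library peak (17 of 115, 14.8%, against 2.56%), and all 4 libraries within 2-fold was less frequent (22 of 115 against 50%).

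Of the profiles that set 1 library or a pair over the others, a peak in the tail was the most frequent. The tail was at least 2-fold over each of the other 3 outer libraries for 17 of the 115 (14.8%), against 2.56% of the background, and above the members' median level for 14 of 58 (24.1%), against 3.17%. The steepest was OFUSG24682.1, with 6705 in tail against 216 in head, 166 in head plus chaetae and 442 in body wall, 14.9-fold over the next library. OFUSG20473.1 followed with 34537 in tail against 4761 in head, 573 in head plus chaetae and 1122 in body wall, 7.24-fold over the next. OFUSG06053.1, OFUSG11849.1, OFUSG25703.1, OFUSG04710.1, OFUSG17389.1 and OFUSG20401.1, described above, also belonged to this profile, so that all but OFUSG14376.1 of the 5 with the highest lowest outer value were tail-high. The other outer libraries had fewer such peaks. The head was at least 2-fold over each of the others for 6 (background 1.89%), the body wall for 6 (2.82%) and the head plus chaetae for 5 (3.07%).

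The head peaks were led by OFUSG00781.1, with 4762 in head against 232 in head plus chaetae, 361 in tail and 251 in body wall, 12.9-fold over the next library. OFUSG16718.1 was second at 5.05-fold. Neither was comparably high in the head plus chaetae, which is also named for the head but may differ in the segments it holds. The head plus chaetae peaks were led by OFUSG06851.1, with 11005 there against 2261 in head, 1466 in tail and 1563 in body wall, and by OFUSG00439.1, with 3975 there and 1380 in head. The body wall peaks were shallow. OFUSG03364.1 had 9237 in body wall against 3124 to 3469 in the other outer libraries, 2.66-fold over the next, and OFUSG20739.1 had 2139 in body wall against 814 in head plus chaetae, 375 in head and 286 in tail.

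Paired profiles were less frequent than tail peaks. Both head libraries were at least 2-fold over both tail and body wall for 5 transcripts (4.35%), against 1.58% of the background. OFUSG00439.1 had the largest such difference, 5.89-fold between the lower head library and the higher of tail (222) and body wall (226), and OFUSG08729.1 had 12672 in head and 11828 in head plus chaetae against 2830 in tail and 2161 in body wall. The others were OFUSG17966.1, OFUSG15720.2 and OFUSG17557.1. This last one differed more widely, with 40137 in head and 8767 in head plus chaetae against 3574 in tail and 1023 in body wall. The reverse, tail and body wall over both head libraries, was seen for 7 (6.09%), against 1.78%. OFUSG08069.1 had 32157 in tail and 59682 in body wall against 6972 in head and 4112 in head plus chaetae, and OFUSG03195.1 had 2376 in tail and 2743 in body wall against 420 in head and 608 in head plus chaetae.

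The outer libraries also differ in the worms they came from, and pairs that follow the worms were looked at in the same way. Head and tail, both from the pool of 5 females, were at least 2-fold over both head plus chaetae and body wall, from single worms, for 6 transcripts (5.22%), against 0.79% of the background. They were OFUSG11849.1, OFUSG11832.1, OFUSG17392.1, OFUSG20473.1, OFUSG17389.1 and OFUSG11796.1. OFUSG11832.1 had 3239 in head and 4166 in tail against 440 in head plus chaetae and 548 in body wall, and OFUSG17392.1 had 15380 in head and 6985 in tail against 1468 in head plus chaetae and 1134 in body wall. For OFUSG11832.1 and OFUSG17392.1 the head library was closer to the tail than to the other library that holds head tissue. The opposite pairing was seen for 4 transcripts, against 2.51% of the background, among them OFUSG22388.1 with 2421 in head plus chaetae and 2723 in body wall against 300 in head and 689 in tail. The remaining 3 were OFUSG24689.1, OFUSG07895.1 and OFUSG20739.1. Of the crossed pairs, head plus chaetae and tail were over head and body wall for 3 (OFUSG23268.1, OFUSG13780.1 and OFUSG02238.1), against 0.62%, and head and body wall over the other pair for 1 (OFUSG24552.1), against 0.263%. Transcripts can be counted under more than one profile, and all 12 profiles are formed from the same 4 libraries. Worm source and body region cannot be told apart for these pairs.

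**Figure D4:**
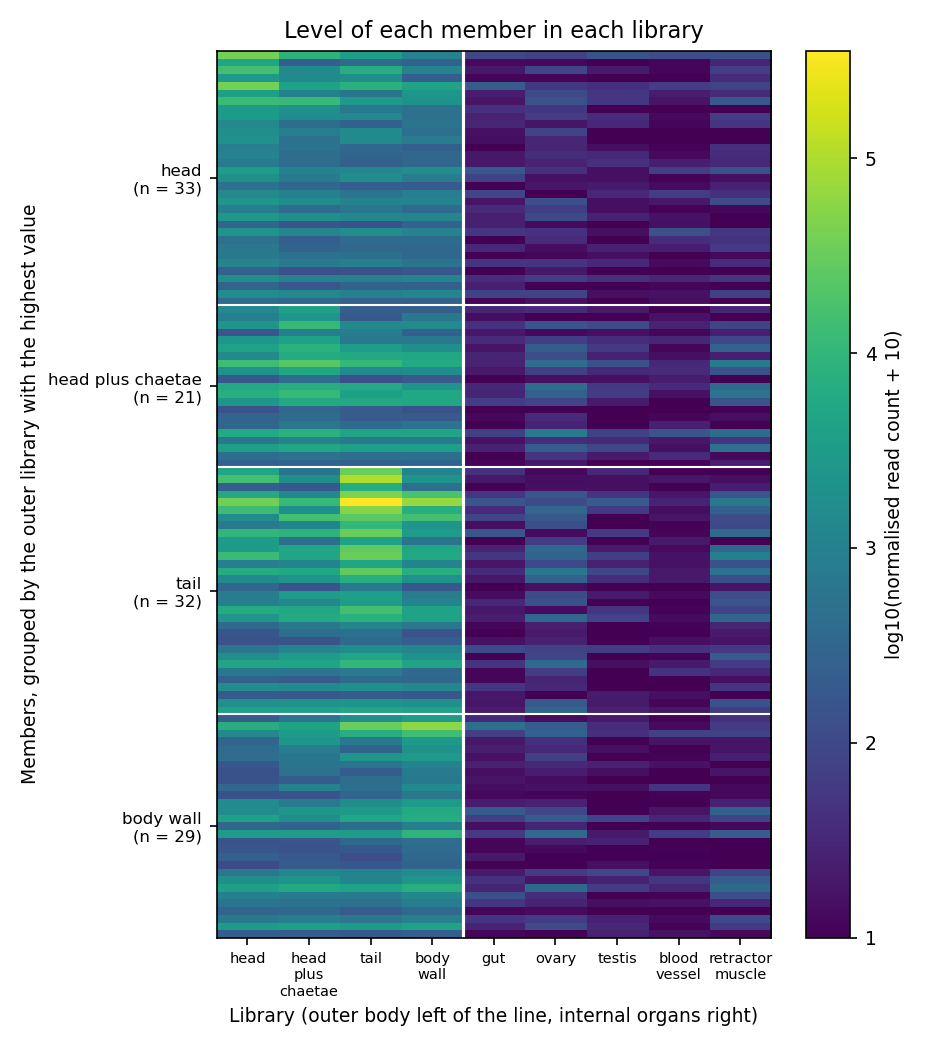
Normalised read counts of the 115 outer body transcripts in the 9 libraries, 1 row per transcript, coloured by log10 of the value plus 10 and grouped by the outer library with the highest value (33 head, 21 head plus chaetae, 32 tail, 29 body wall). On the authors' scaling, ovary and retractor muscle are the internal libraries most often above the others (51 and 36 of 115), and on a common library sum the retractor muscle is highest for 4, where its background share is 2.60%.

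In addition, 4 pairs of outer libraries were compared over all 115. With 10 added to each value, 20 were at least 2-fold higher in head than tail and 37 at least 2-fold lower, against 6.66% and 10.9% of the background, with a median log2 difference of -0.07. Head plus chaetae was at least 2-fold over head for 21 and under it for 23, against 14.8% and 7.69%. Body wall was at least 2-fold over tail for 14 and under it for 30, against 9.39% and 8.73%. Head plus chaetae was at least 2-fold over body wall for 22 and under it for 19, against 10.3% and 10.4%. Every median log2 difference lay between -0.11 and -0.01, while 58 of the 115 stayed within 2-fold between head and tail and 71 to 74 in the other pairs, so differences ran in both directions. The highest outer library was the head for 33 transcripts, the tail for 32, the body wall for 29 and the head plus chaetae for 21. In the background the head was highest for 23.6%, the tail for 24.0%, the body wall for 30.0% and the head plus chaetae for 22.5%.

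Among the internal organs, the levels that remained were highest in ovary and retractor muscle on the authors' scaling. The ovary was the highest internal library for 51 of the 115, the retractor muscle for 36, the gut for 16, the testis for 8 and the blood vessel for 4. In the background the shares were 22.1% for ovary, 17.1% for retractor muscle, 26.5% for gut, 17.3% for testis and 17.0% for blood vessel. This order depended on the scaling. On values scaled to a common library sum, which lowers testis and retractor muscle, the ovary was highest for 79, the gut for 25, the blood vessel for 7, the retractor muscle for 4 and the testis for 0. In the background on that scale the ovary was highest for 37.4%, the gut for 41.4%, the blood vessel for 17.8%, the retractor muscle for 2.60% and the testis for 0.759%. The scaling thus lowered the retractor muscle and testis counts in members and background alike, and the ovary was the most frequent highest library of the members on both scales.

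As a percentage of a transcript's own lowest outer value, on the authors' scaling, the median level was 6.95% in ovary, 5.72% in retractor muscle, 1.39% in gut, 1.26% in testis and 0.479% in blood vessel. Scaling to a common library sum multiplies retractor muscle by 0.208 and testis by 0.0960, and the other libraries by 0.850 to 1.18. The percentages of retractor muscle and testis, in members and background, would thus be several times lower on that scale. The middle 50% of the transcripts ran from 2.59% to 10.7% in ovary and from 0.0825% to 1.84% in blood vessel. Background medians were 118% in ovary, 128% in retractor muscle, 140% in gut, 125% in testis and 99.4% in blood vessel. The gut, which had the highest of these percentages in the background, was thus well below the ovary for the outer body transcripts.

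The order of the members by internal level was also set beside their order by outer level. Over the 115, Spearman's rho with the 4 outer libraries was 0.66 to 0.76 for the retractor muscle, 0.62 to 0.73 for the ovary, 0.50 to 0.64 for the gut, 0.47 to 0.58 for the testis and 0.24 to 0.40 for the blood vessel. In the 6452 transcripts of the background it was 0.51 to 0.55 for the retractor muscle, 0.27 to 0.40 for the ovary, 0.39 to 0.50 for the gut, 0.31 to 0.36 for the testis and 0.08 to 0.24 for the blood vessel. Among the outer libraries it was 0.66 (head and body wall) to 0.81 (tail and body wall), against 0.62 and 0.78. These are correlations across transcripts measured in the same 9 libraries, the choice by lowest and highest value ties outer and internal levels together, and transcripts are not independent replicates.

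At 0 were 38 of the 115 in testis, 24 in blood vessel, 22 in retractor muscle, 9 in gut and 8 in ovary. In the background 5.33% were at 0 in testis, 2.74% in blood vessel, 1.78% in retractor muscle, 0.775% in gut and 0.961% in ovary, so the libraries with most zeros were the same. Fewer than 10 reads were counted for 101 in testis, 81 in blood vessel, 54 in retractor muscle, 37 in gut and 29 in ovary. In 12 transcripts no internal library reached 10 reads, in 25 exactly 1 did, and in 9 all 5 did. Background shares are not given here for these read counts, which are a description only. The order of the libraries by them also follows the worth of 1 read, 5.53 normalised read counts in testis against 0.663 in gut. A value of 0 was found in 1 internal library for 27 transcripts, in 2 for 14, in 3 for 11 and in 4 for 2, OFUSG12094.1 and OFUSG23562.2. OFUSG19630.4 was the only one at 0 in all 5. It had 134 in head, 196 in tail, 132 in body wall and 302 in head plus chaetae. Its lowest outer value was also set against the worth of 3 reads in each internal library. It was 66.3-fold higher in gut, 64.1-fold in ovary, 46.4-fold in blood vessel, 15.99-fold in retractor muscle and 7.95-fold in testis. These folds are not lower bounds, since the exact Poisson interval of a count of 0 reaches 3.69 reads. They also rest on how reads were divided between isoforms of the gene. In blood vessel, OFUSG19630.1 had 592 and OFUSG19630.3 had 524, and in gut OFUSG19630.2 had 312.

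Outer and internal libraries placed in the same worm were also set side by side. In the female, body wall over the higher of gut and ovary, with 10 added to each, had a median of 16.1 and ran from 5.29 to 418. In the male, head plus chaetae over the highest of blood vessel, retractor muscle and testis had a median of 19.5 and ran from 5.07 to 237. The background medians were 0.759 in the female and 0.691 in the male. The rule fixes a ratio of at least 5 in both, so these values are a description. They do not separate tissue from worm, and the placement rests on the sex labels.

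Some transcripts were kept out by a single internal library. When one such library was left out of the rule, 81 more transcripts passed without the ovary, 52 without the gut, 49 without the retractor muscle, 6 without the testis and 2 without the blood vessel. OFUSG06358.1 had 11068 in head, 15405 in tail, 54244 in body wall and 24210 in head plus chaetae, against 2327 in ovary, which kept it out. OFUSG25188.2 had 8308 in head, 2750 in tail, 6340 in body wall and 4214 in head plus chaetae, against 2132 in gut. OFUSG08476.1 had 4389 in head, 29999 in tail, 7191 in body wall and 16862 in head plus chaetae, against 2072 in retractor muscle. Each was high in all outer libraries and in one internal library above its other internal values.

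The 115 transcripts belonged to 115 different genes, of which 22 (19.1%) had more than one isoform in the file, against 13.6% of all genes. No other isoform of these genes passed the ratio, 8 of 33 had at least 100 in every outer library, and 10 of 33 exceeded 100 in an internal library. With isoforms summed, 16 of the 22 genes still passed the rule and 6 did not. Pseudo-alignment divides reads that isoforms share, so the division between isoforms of a gene is uncertain.

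The 6 genes that failed when summed include the transcript with the zeros. OFUSG19630.1, another isoform of that gene, had 592 in blood vessel and 101 in gut, and OFUSG19630.3 had 524 in blood vessel and 177 in ovary. Summed over isoforms the gene OFUSG19630 had a lowest outer value of 343, against 1115 in blood vessel, so that the gene as a whole was higher in an internal organ. OFUSG23562.2 had 240 in head, 114 in tail, 321 in body wall and 175 in head plus chaetae, against 10.6 in gut and 0 in the others. Its other isoform, OFUSG23562.1, was at 237 to 422 in the outer and 209 to 511 in the internal libraries and was not an outer transcript. OFUSG15720.2 had 2954 in head, 679 in tail, 513 in body wall and 1918 in head plus chaetae against 44.4 in ovary as its highest internal value. OFUSG15720.1 was highest in the head plus chaetae at 7001 and had 424 in gut, 316 in ovary and 452 in retractor muscle. The other genes that failed were OFUSG02801, OFUSG03895 and OFUSG07383.

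Isoforms could also differ within the outer body. OFUSG16345.2 was highest in the head plus chaetae at 2382, against 930 in head, whereas OFUSG16345.1 was highest in the head at 2167, against 272 in head plus chaetae. Both were low in the internal libraries, at most 6.62 for OFUSG16345.2 and 46.98 for OFUSG16345.1. The genes shown by isoform were picked after their values were seen.

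**Figure D5:**
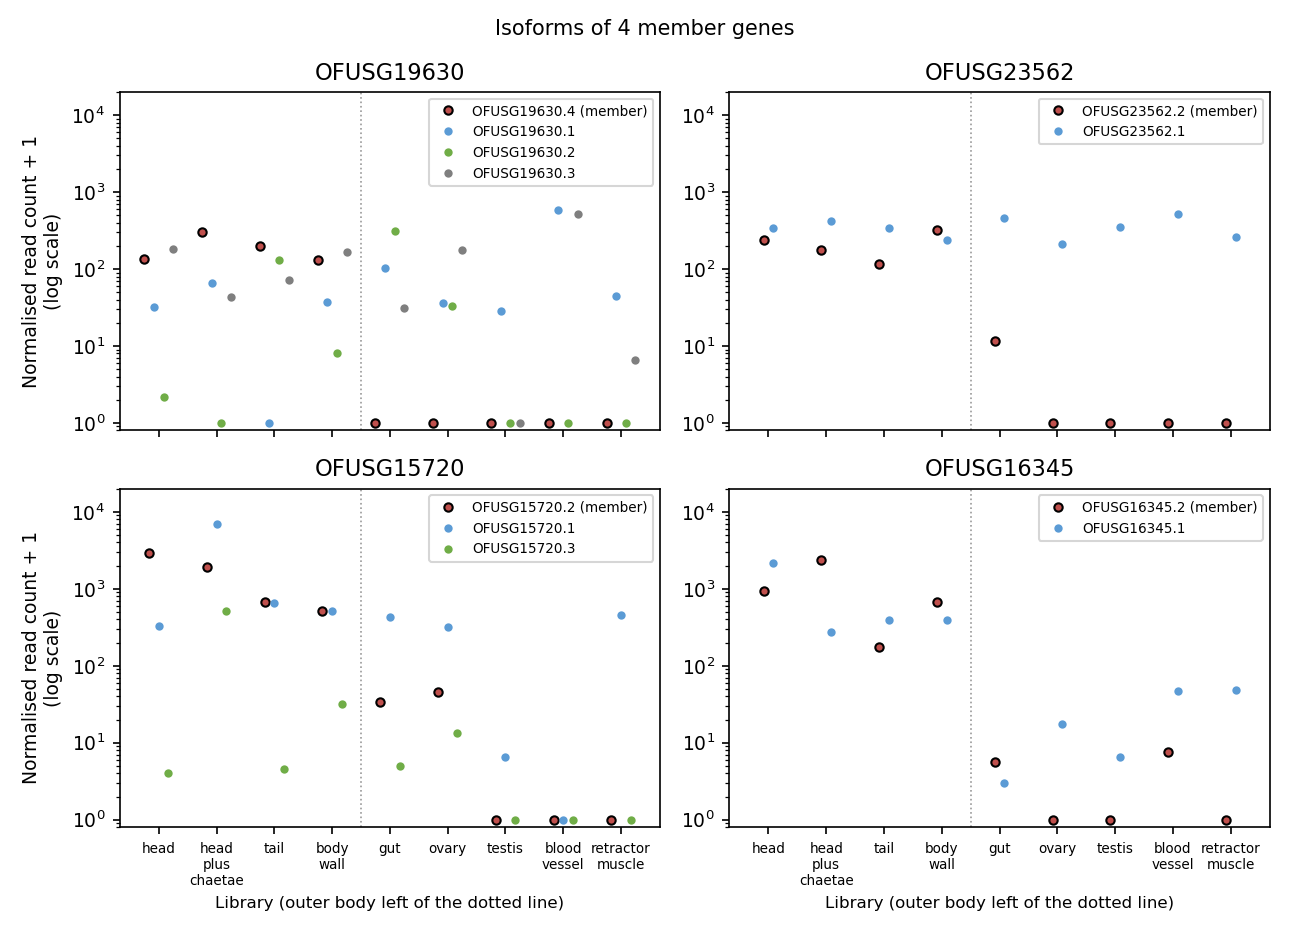
Normalised read counts (plus 1, log scale) of the isoforms of 4 genes in the 9 libraries, outer libraries left of the dotted line, with the outer body isoform outlined in black. In OFUSG19630 and OFUSG23562 another isoform was present in the internal libraries (OFUSG23562.1 at 209 to 511), where the outer body isoform was at 0 in at least 4 of 5.

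Of the 115 genes, 10 formed 5 pairs with consecutive identifiers. No such share is given here for the background, so this number is a description only. OFUSG22563.1 and OFUSG22564.1 were alike over the outer libraries. OFUSG22563.1 had 132 in head, 293 in tail, 617 in body wall and 137 in head plus chaetae, and OFUSG22564.1 had 145 in head, 336 in tail, 414 in body wall and 149 in head plus chaetae. The other pairs were less alike, as with OFUSG20738.1 and OFUSG20739.1, where the head had 3975 and 375. Consecutive numbers do not show that genes are adjacent, as positions were not used here.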

How the data were processed

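Total RNA of 9 adult tissues, extracted with a Monarch kit and sequenced on the BGISEQ-500 platform, was analysed, 1 library per tissue. The authors trimmed reads with trimmomatic, pseudo-aligned them to their gene models with kallisto and normalised read counts over the 9 libraries with DESeq2 (the submitters' processing notes name kallisto 0.44.0, DESeq2 1.34.0 and R 4.1.2). The deposited signal of a transcript was taken here as its read count divided by a factor of the library. The step between kallisto and DESeq2 is not described in the sources, and the values may also carry a length correction.

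The worth of 1 read per library came from the spacing of low values (up to 20 reads), of which 93.1% (retractor muscle) to 100% (testis) were within 0.1 of a whole read. Exact Poisson intervals on these approximate reads cover counting error only. Folds were computed after adding 10 to each value. With 1 library per tissue, no differential test was made. A transcript counted as past a profile when the fold was at least 2. The reference table of 27038 genes holds 0 of the 31911 identifiers, so no names, lengths or positions were used.

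The members, lists and profiles were chosen with earlier results of these data known. The transcripts named are the 10 highest ratios, the 5 highest lowest outer values, the 2 leading members of each profile and those at the thresholds, and any other name was picked with its values in view. The plan assumed up to 200 members, and 115 passed. The code of the rule was run on simulated data with planted members. All other simulated transcripts had the same mean in all 9 libraries. That run thus checks the code and not the choice of members in these data. Alternatives were offsets of 1 and 50, minimums of 50 and 200 or none, other scalings, summed isoforms, the mean of the outer libraries, the second highest internal library and each library left out. Python 3.11.15, numpy 2.4.6, pandas 2.3.3, scipy 1.17.1 and matplotlib 3.10.9 were used.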

Additional observations from a re-analysis of the deposited data

How the results depend on the processing

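The share of transcripts passing the rule, 0.36% (115), was 0.185% (59) with an offset of 50 and 0.63% on values scaled to a common library sum. It was 3.81% (1216) when the mean of the outer libraries replaced the lowest, and 0.956% (305) when the second highest internal library replaced the highest. With a library left out, 117 to 212 transcripts passed, with 0.664% (212) without the head, 0.605% (193) without the body wall and 0.614% (196) without the ovary. Of the 115, 59 were found again with an offset of 50, and 36 among the 200 highest ratios when the mean was used. At the 17 other settings run for membership, 91 to 115 were found again, and at the 13 other settings for the count it stayed within 1.5 times. Most of the 17 say little about how firm membership is. Leaving out a library, an offset of 1, a lower minimum or the second highest internal library only loosens the rule. A member can then be lost only through the cap of 200. The 91 are the members that reach a minimum of 200. Of the 12 profiles, 5 were rerun over 5 offsets and scalings and stayed within 1.5 times, with 15 to 17 tail peaks, 5 to 7 transcripts higher in both libraries of the pool, 5 higher in both head libraries, 5 to 9 higher in tail and body wall and 20 to 30 within 2-fold. The other 7 were not rerun. No paired analysis was possible because each tissue has 1 library and no test was made. In the testis 1 read was worth 5.53 normalised read counts, although it was the deepest library, with about 22177997 reads. Its 10 most abundant transcripts held 77.4% of the summed values. Low levels there rest on 1 to 3 reads, and differences among them were not detectable.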
